A study of Mus musculus with 8 samples.

Results

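Ccl17, Ccl22, Ccr7 and Ccr4 were followed as a chosen set of 4 genes out of the 21742 nuclear genes named in the count tables of CD45+ wound cells. Ccl17 and Ccl22 encode chemokines, Ccr4 encodes the receptor that both bind, and Ccr7 encodes the receptor for Ccl19 and Ccl21. The cells came from skin wounds on the backs of male C57BL/6J mice. Diabetic mice had received streptozotocin, a toxin of the insulin-producing beta cells, at 120 mg/kg at the age of 4 weeks, and control mice had wounds without diabetes. Each of 8 libraries held the pooled cells of 5 mice, with 1 diabetic and 1 control library for each of days 1, 3, 5 and 7 after wounding. The cells had been sorted for CD45, so lymphatic endothelium, fibroblasts and keratinocytes, which make ligands for these receptors, were sampled only as stray cells. Mice within a pool could not be separated, and the spread between mice was therefore not measured.

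Dendritic cells take up antigen in the skin, mature, and then raise Ccr7, which guides them along Ccl19 and Ccl21 into lymphatic vessels and lymph nodes. Maturing dendritic cells of skin are also a known source of Ccl17 and Ccl22. These chemokines attract T cells that carry Ccr4, among them regulatory T cells, type 2 helper cells and skin-homing memory cells.

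On the mouse genome GRCm38, Ccl22 (ENSMUSG00000031779) lies on chromosome 8 at chr8:94745590-94751699 and Ccl17 (ENSMUSG00000031780) at chr8:94810453-94812036, both on the plus strand. They are 58753 bases apart, with 1 protein-coding gene, the chemokine gene Cx3cl1, between them. Ccr4 (ENSMUSG00000047898) lies at chr9:114490316-114504916 and Ccr7 (ENSMUSG00000037944) at chr11:99144196-99155077, both on the minus strand. GENCODE places 0 other genes over any of the 4, so reads shared with an overlapping gene were not a limit. Because Ccl22 and Ccl17 are neighbours that were counted in the same cells, their upstream sequence is shown here from RefSeq (GRCm38.p6, plus strand, 5′ to 3′). The letters of a kappa B motif (GGG, any 5 bases, then CC, on either strand) are in capitals in the 156 bases before Ccl22, chr8:94745434-94745589. The letters of a STAT6 motif (TTC, any 4 bases, then GAA, which reads the same on both strands) are in capitals in the 250 bases before Ccl17, chr8:94810203-94810452.
Ccl22: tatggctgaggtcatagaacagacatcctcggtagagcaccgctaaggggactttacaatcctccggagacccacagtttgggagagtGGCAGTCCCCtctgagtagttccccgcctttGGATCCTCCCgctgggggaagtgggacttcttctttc
Ccl17: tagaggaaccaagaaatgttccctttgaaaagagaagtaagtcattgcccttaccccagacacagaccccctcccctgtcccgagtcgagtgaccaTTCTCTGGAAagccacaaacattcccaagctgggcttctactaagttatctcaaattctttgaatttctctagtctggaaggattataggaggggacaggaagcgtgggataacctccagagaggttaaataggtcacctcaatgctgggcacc
The RefSeq start of Ccl22 lies inside the GENCODE gene, so its window of 250 bases before the start (chr8:94745434-94745683) runs on past the printed bases. The whole Ccl22 window held 2 matches to the kappa B letters, which begin 162 and 131 bases before the RefSeq start, and 0 matches to the STAT6 letters. The Ccl17 window held 1 STAT6 match, which begins 154 bases before the start, and 0 kappa B matches. Of 32851 promoter windows of 250 bases, 45.8% held the kappa B letters and 5.85% held the STAT6 letters, and a match is a description of the sequence only.

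The libraries held 19236522 to 33842509 UMIs (unique molecular identifiers, each counting 1 captured transcript), and 3266 to 5436 cells were kept in each. The share of barcodes removed ran from 1.00% in the control library of day 7 to 28.6% in the control library of day 5, whose kept cells were also the deepest, with a median of 8234 UMIs. Summed over the kept cells, 2530 UMIs of Ccl17, 23333 of Ccl22, 20666 of Ccr7 and 820 of Ccr4 were counted, so Ccr4 had the fewest. Barcodes were serial numbers that could not be matched between libraries, and 0 cells had the same profile as a cell of another library. Cells were clustered with these 4 genes left out of the clustered genes, and 2851 cells were called dendritic-like and 2456 T cell-like from marker genes. The 2851 cells formed a single cluster, for which the mature dendritic list scored best. As it was the only dendritic cluster, it was renamed dendritic-like, and the mature name was kept for sub-clusters. Levels are given as CPM, the UMIs of a gene per 1000000 UMIs of the cells summed. All 7 dendritic markers, such as H2-Ab1 at 17593 against 2858 CPM in all other cells, were higher in the dendritic-like class, and all 6 T cell markers, such as Cd3e at 441 against 9.99, were higher in the T cell-like class. All 5 B cell markers were also higher in the dendritic-like class, at low levels such as 3.15 against 0.33 CPM for Ms4a1, and an unnamed sub-cluster of 18 cells led by Igkc and Igha stood at 447 CPM of Ccr7 (311 to 621) with 0 UMIs of Ccl17 and Ccl22. Among dendritic-like cells, 579 in a pair of sub-clusters were called mature dendritic-like from Fscn1 and related markers. Of the mature dendritic markers, Il4i1 was close to 0 even in the dendritic-like class, at 0.611 CPM. A class is a cluster of the same cells in which the genes were counted, so levels by class are described below without a test.

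Ccl17 was counted mainly in dendritic-like cells. Summed over all libraries, its level was 293 CPM in mature dendritic-like cells (95% Poisson interval 278 to 310), 40.2 in other dendritic-like cells (37.3 to 43.4), 4.40 in T cell-like cells and 2.38 in neutrophil-like cells. Intervals here and below cover counting error only. In mature dendritic-like cells the level was 734, 222, 287 and 147 CPM in the diabetic libraries of days 1, 3, 5 and 7. In the control libraries of the same days it was 744, 86.7, 695 and 144. Both day 1 libraries and the control library of day 5 stood high, the other 5 were lower, and the groups overlapped. In the control library of day 5 a single cell held 127 of the 302 UMIs behind this level, and in that of day 3 a single cell held 25 of 44. After every cell was thinned to 1000 UMIs, 11.8% of mature dendritic-like cells had a UMI of Ccl17 (26.1% without thinning), against 1.74% of other dendritic-like, 0.389% of T cell-like and 0.184% of neutrophil-like cells. The neutrophil-like share was taken as a rough measure of free RNA, which was not estimated directly. It cannot tell free RNA from doublets or from transcripts of the neutrophil-like cells themselves. Median depths before thinning were 7241 UMIs in mature dendritic-like and 2475 UMIs in neutrophil-like cells.

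Few cells carried most of the Ccl17. Of the 1286 UMIs in mature dendritic-like cells, the 15 highest cells held 50%. The median mature dendritic-like cell had 0 UMIs of Ccl17. In the whole diabetic library of day 1, 10 cells held 89.6% of the UMIs of the gene, and in the control library of day 1, 10 cells held 86.1%. In the libraries of day 7 the corresponding shares were 41.7% and 53.6%. The day 1 libraries also had the fewest mature dendritic-like cells, 27 in the diabetic and 28 in the control library.

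Ccl22 was still more concentrated in the mature dendritic-like class. Its summed level was 3972 CPM in mature dendritic-like cells (3913 to 4032), 119 in other dendritic-like cells (113 to 124), 46.4 in T cell-like cells and 19.5 in neutrophil-like cells. In mature dendritic-like cells it stood at 4913, 3699, 5442 and 2574 CPM in the diabetic libraries of days 1, 3, 5 and 7. The control libraries gave 5650, 2791, 6290 and 1826 on the same days. Days 1 and 5 were high and days 3 and 7 low in both groups, and the groups overlapped. Thinned to 1000 UMIs, 65.2% of mature dendritic-like cells had a UMI (61.1% to 69.2%), against 7.31% of other dendritic-like and 1.89% of neutrophil-like cells. Mature dendritic-like cells made up 0.568% to 3.21% of the cells of a library and held 53.5% to 86.5% of its Ccl22 UMIs.

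**Figure D1:**
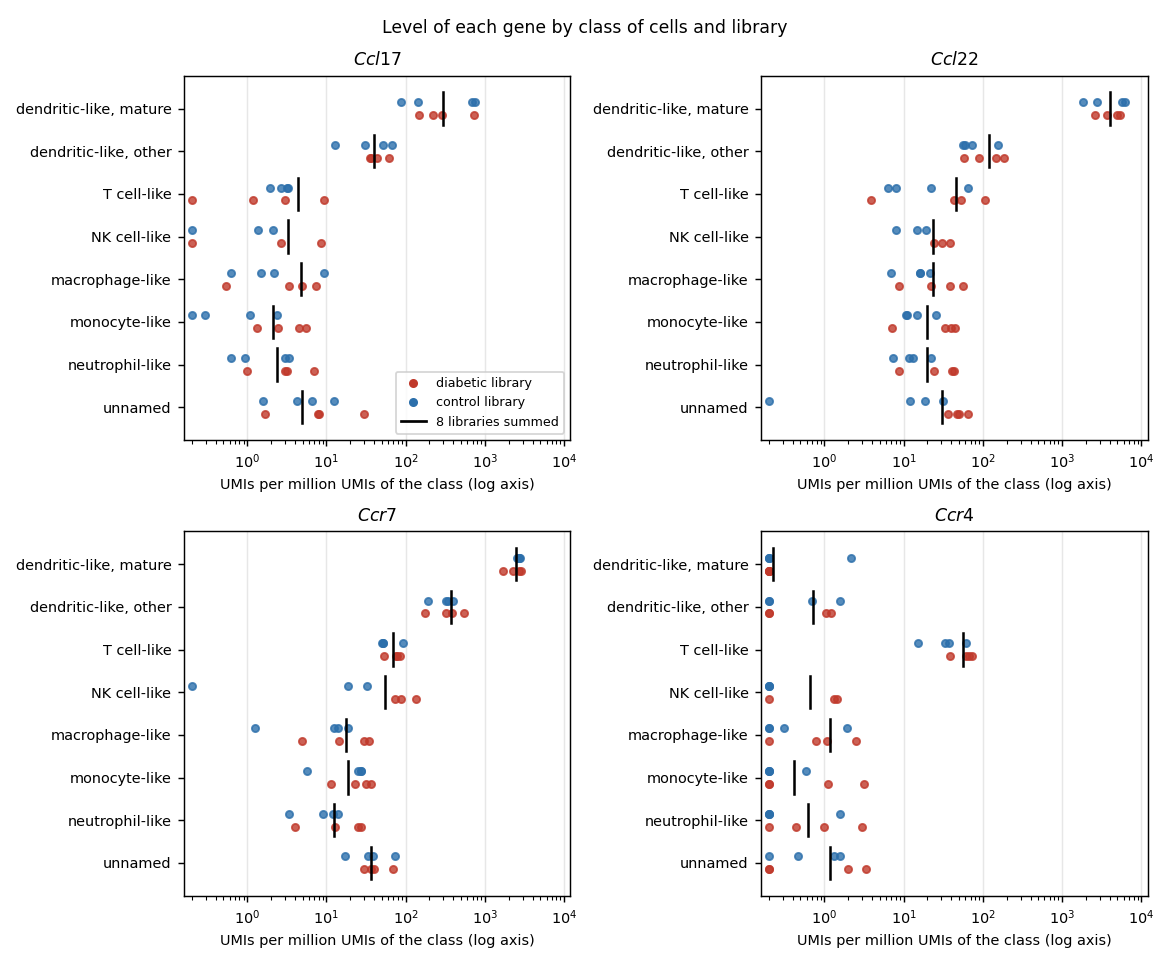
Level of each gene (x axis, log scale, CPM of the class) in 8 classes of cells (y axis). Points are libraries with at least 20 cells of the class, with values of 0 drawn at the left edge, and black bars are the 8 libraries summed. Ccl17, Ccl22 and Ccr7 are highest in mature dendritic-like cells, at 293, 3972 and 2457 CPM, and Ccr4 is highest in T cell-like cells, at 56.9.

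The Ccl22 counted in T cell-like cells came from few cells in some libraries. In the control library of day 7 a single cell held 122 of the 160 UMIs, and in the diabetic library of day 3 a single cell held 53 of 89. In the diabetic library of day 5 the 103 UMIs were spread over 79 of 482 cells, with at most 4 in a cell. The level there was 43.9 CPM, beside 40.5 in neutrophil-like cells of the same library. The thinned share of T cell-like cells with a UMI of Ccl22 was 2.64% (2.02% to 3.37%), beside 1.89% of neutrophil-like cells (1.66% to 2.14%). The part of free RNA and of doublets in these counts was not tested.

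Both mature dendritic-like sub-clusters carried Ccl17, Ccl22 and Ccr7. Summed over all libraries, the level of each differed between them beyond counting error, that of Ccl17 the most in proportion. In the sub-cluster led by Apol7c and Il12b (351 cells) the levels were 383 for Ccl17, 4201 for Ccl22 and 2815 for Ccr7, in CPM. In the sub-cluster led by Adam23 and Thy1 (228 cells) they were 135, 3569 and 1824 for the same genes. These sums pool libraries that differ in level and in the shares of the sub-clusters. In the diabetic library of day 3 and the control library of day 1, Ccl17 was not higher in Apol7c/Il12b-led cells. Ccr7 was also high in a pair of sub-clusters that were given no name, at 1155 CPM in the one led by Ap1s2 and Il1r2 (278 cells) and 638 in the one led by Ly6a and Ms4a4c (454 cells). Ccl22 in these was 233 and 187, and Ccl17 was 34.8 and 59.7. cDC1-like cells, the dendritic cells specialised in cross-presentation, had 47.5 for Ccl17, 89.9 for Ccl22 and 146 for Ccr7. Langerhans-like cells, the dendritic cells of the epidermis, had 45.6, 186 and 268 in the same order, and their 34 UMIs of Ccl17 lay in 6 of 91 cells, 5 of them among the 17 cells of the diabetic library of day 7 and 1 in the diabetic library of day 5. Ap1s2/Il1r2 cells were rare on day 1, at 1.00% and 0% of dendritic-like cells in the diabetic and control library, and made up 18.1% and 11.2% on day 7. The largest sub-cluster (606 cells) was led by Lyz1 and Mrc1, with the macrophage marker Cd163 also among its leading genes, and was given no name. Over the diabetic libraries its levels were 59.0 for Ccl17, 121 for Ccl22 and 192 for Ccr7. Over the control libraries they were 38.7, 83.3 and 281. An unnamed sub-cluster led by Cd7 and Pi16 (483 cells) had Ccr7 at 101 CPM in diabetic and 82.9 in control libraries.

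**Figure D2:**
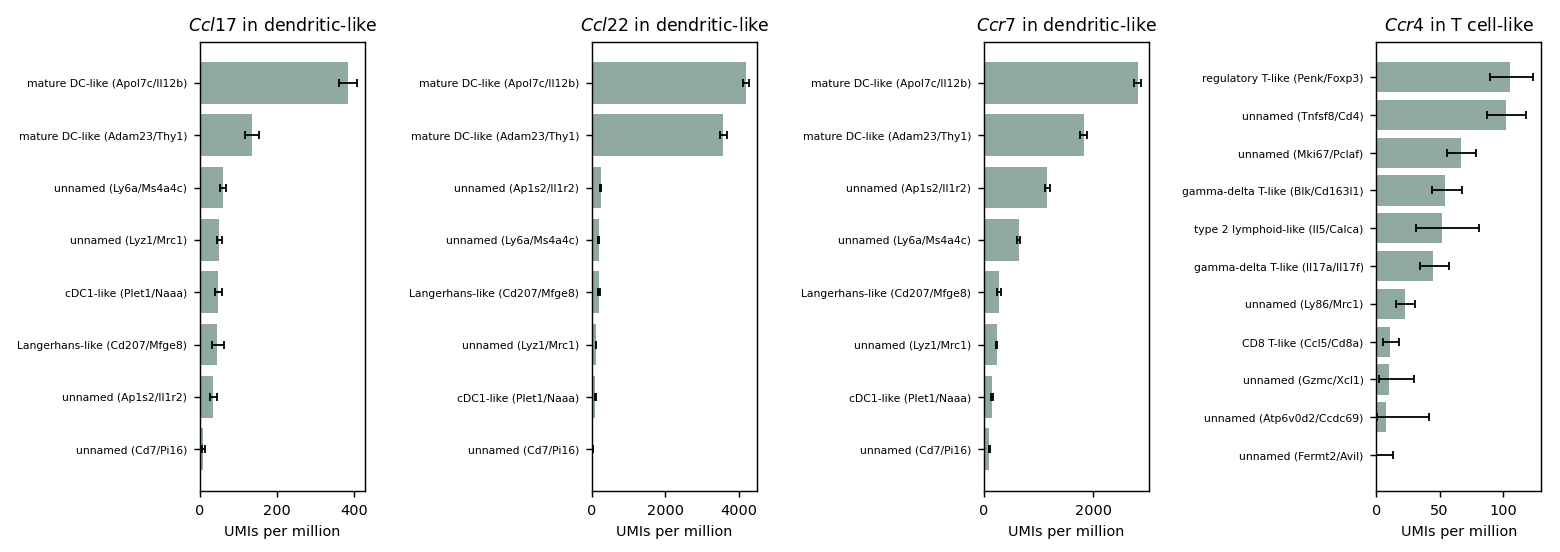
Level of Ccl17, Ccl22 and Ccr7 in sub-clusters of dendritic-like cells and of Ccr4 in sub-clusters of T cell-like cells (x axes, CPM from 0, 8 libraries summed, sub-clusters of at least 50 cells). Error bars are 95% Poisson intervals. Ccl22 falls from 3569 CPM in the lower of the mature sub-clusters to 233 in the next, while Ccr7 declines more gradually, from 1824 to 1155.

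Outside the mature sub-clusters the day pattern was different. In other dendritic-like cells Ccl22 was 57.9, 89.9, 148 and 184 CPM in the diabetic libraries of days 1, 3, 5 and 7 and 56.9, 60.2, 157 and 73.0 in the controls. Ccr7 was 178, 319, 546 and 380 CPM in the diabetic and 192, 342, 394 and 327 in the control libraries, lowest on day 1 in both groups. Ccl17 was 43.0, 62.3, 35.5 and 36.8 CPM in the diabetic and 51.2, 30.6, 66.4 and 12.9 in the control libraries, without an order by day that both groups shared. The groups overlapped for each of the 3 genes.

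Counts outside dendritic-like cells also differed between libraries. In neutrophil-like cells, used here as the measure of free RNA, the level of Ccl22 was 8.77, 24.2, 40.5 and 43.3 CPM in the diabetic and 7.32, 11.8, 22.3 and 13.1 in the control libraries of days 1, 3, 5 and 7. Ccr7 in the same cells was 4.03, 12.9, 25.4 and 27.6 CPM in the diabetic and 3.33, 14.1, 9.13 and 12.0 in the controls. Both genes were highest there in the diabetic libraries of days 5 and 7, in which dendritic-like cells were also most frequent. A link between these was not tested. Dendritic-like cells held 55.4% to 90.9% of a library's Ccl17 UMIs, with macrophage-like cells at 26.6% and 25.3% in the control libraries of days 5 and 7. For Ccl22 and Ccr7, macrophage-like cells held at most 19.7% and 14.7%, both in the control library of day 7, where 49.4% of the cells were macrophage-like.

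Within single dendritic-like cells the genes were often detected together. After thinning, 72.8% of the 103 dendritic-like cells with a UMI of Ccl17 also had Ccl22, against 16.8% of those without Ccl17. Among mature dendritic-like cells alone the shares were 90.8% and 61.8%. Of mature dendritic-like cells with Ccl22, 82.7% had Ccr7, beside 79.1% of those without. Cells of a library are not replicates, and these shares are descriptions.

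Over 52 sums of a class in a library, the gene most like Ccl17 was Apol7c (Pearson r = 0.968), followed by Adam23, Strip2, Fscn1 and Adcy6. The gene most like Ccl22 was Fscn1, the actin-bundling protein fascin (r = 0.97), followed by Sema7a, Adam23, Cacnb3 and Zfp366. Those most like Ccr7 were Tbc1d4 (r = 0.951), Cacnb3, Fscn1, Dpp4 and H2-DMb2. Among the members, r was 0.917 between Ccl17 and Ccl22 and 0.922 between Ccl22 and Ccr7. The sums come from 8 classes that share libraries and depth, and the coefficients largely follow the differences between classes.

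Ccr7 spanned a narrower range across libraries in mature dendritic-like cells than Ccl17 or Ccl22. In mature dendritic-like cells its level was 2660, 2295, 2838 and 1719 CPM in the diabetic libraries of days 1, 3, 5 and 7. It was 2702, 2754, 2682 and 2557 in the control libraries. The controls lay close together, the diabetic library of day 7 was the lowest of all, and the groups overlapped. Thinned shares with a UMI were 81.4% of mature dendritic-like and 19.5% of other dendritic-like cells, beside 1.01% of neutrophil-like cells. In T cells, Ccr7 marks naive and central memory cells that recirculate through lymph nodes. In T cell-like cells it was 53.6, 84.7, 78.8 and 75.7 CPM in the diabetic and 50.1, 51.6, 93.0 and 51.1 in the control libraries. The thinned share was 4.97% of T cell-like cells (4.12% to 5.94%), above that of neutrophil-like cells. Within the class, the Tnfsf8/Cd4-led sub-cluster (435 cells) stood at 126 CPM of Ccr7 (110 to 144) and type 2 lymphoid-like cells at 115 (83.2 to 156), which did not differ beyond their intervals. NK cell-like cells, 545 in all, stood at 55.5 CPM.

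Ccr4 showed the opposite distribution. Of its 820 UMIs, 83.7% lay in T cell-like cells and 8.29% in macrophage-like cells, and 13 UMIs lay in dendritic-like cells. The level was 56.9 CPM in T cell-like cells (52.7 to 61.3), 1.16 in macrophage-like, 0.631 in neutrophil-like and 0.611 in dendritic-like cells. Mature dendritic-like cells held 1 UMI of Ccr4 in all, a level of 0.228 with an interval of 0.00578 to 1.27. After thinning, 4.24% of T cell-like and 0.0614% of neutrophil-like cells had a UMI. Within the T cell-like class the level was highest in regulatory T-like cells, at 106 CPM, and in the Tnfsf8/Cd4-led sub-cluster, at 102, and these neighbours did not differ beyond their intervals. It was 66.8 in the Mki67-led cycling sub-cluster, 54.7 and 45.2 in the pair of gamma-delta T-like sub-clusters, 52.2 in type 2 lymphoid-like cells and 10.5 in CD8 T-like cells. The gene most like Ccr4 over the 52 sums was Il17a (r = 0.985), followed by Hlf, Cxcr6, Npnt and Il23r.

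**Figure D3:**
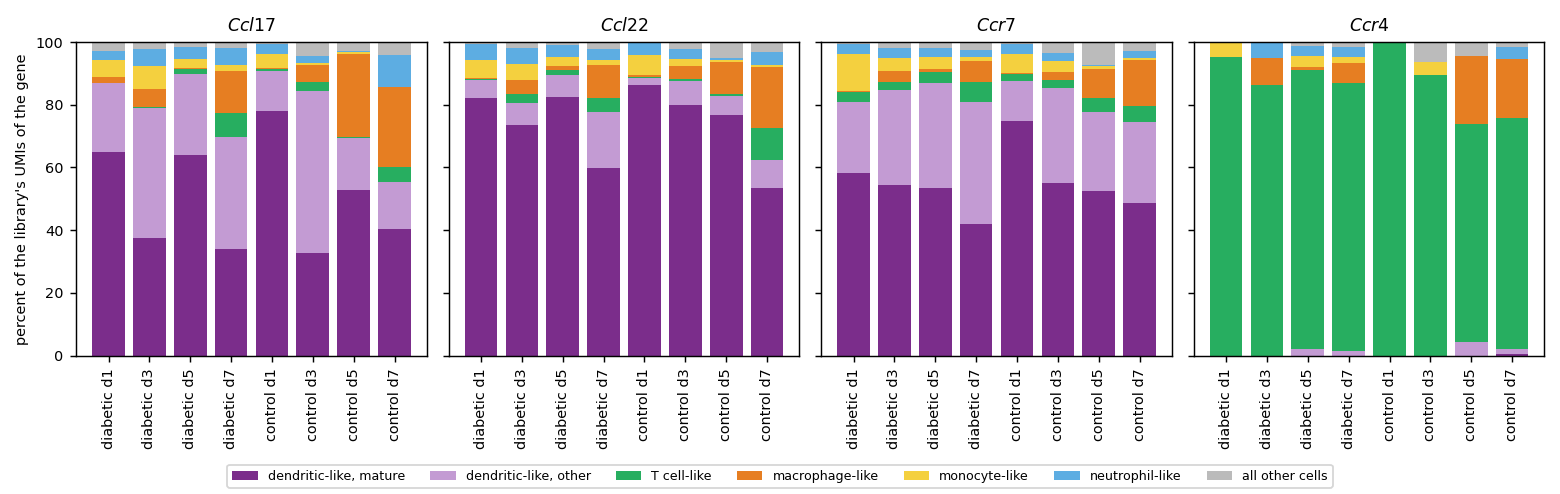
Percent of each library's UMIs of a gene (y axis) that lay in each class of cells, for 8 libraries (x axis, group and day). T cell-like cells hold 69.6% to 100% of the Ccr4 UMIs, while mature dendritic-like cells hold 53.5% to 86.5% of the Ccl22 UMIs.

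The first comparison asked whether the 4 genes differed between diabetic and control wounds. Over all cells kept, Ccl17 was 11.7, 15.8, 21.0 and 18.2 CPM in the diabetic libraries of days 1, 3, 5 and 7, and 11.1, 6.60, 19.4 and 5.04 in the control libraries. The diabetic value was the higher on 4 of 4 days, within counting error on days 1 and 5, and the groups overlapped. Ccl22 was 61.5, 133, 310 and 181 in the diabetic and 76.1, 87.3, 121 and 48.1 in the control libraries, higher in the diabetic library on 3 of 4 days. On day 7 the ratio of the diabetic over the control library was 3.61 for Ccl17 and 3.76 for Ccl22 (3.54 to 3.99 by counting error), in single libraries.

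Ccr7 over all cells was 47.1, 112, 249 and 172 CPM in the diabetic and 42.1, 125, 75.7 and 74.0 in the control libraries. Ccr4 was 1.10, 2.42, 8.34 and 12.8 in the diabetic and 0.744, 2.32, 0.781 and 6.13 in the control libraries. The widest gap for both fell on day 5, with a ratio of 3.29 for Ccr7 (3.13 to 3.45) and 10.7 for Ccr4 (6.90 to 17.3). On days 1 and 3 the Ccr4 levels of the groups did not differ beyond counting error. The control library of day 5 is the one from which the most barcodes were removed. A level over all cells divides by the UMIs of every class. In that library macrophage-like and osteoclast-like cells held 16340352 and 5970241 of 29433064 UMIs, and T cell-like cells 1042821. In the diabetic library of day 5 the same classes held 1862576, 227470 and 2346575 of 21452255. The part of this in the ratios was not tested.

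With day as a block, 0 of the 4 genes passed the test over all cells, where 0% of 12905 genes did. The log2 fold change of diabetic over control was 0.87 ± 0.33 (SE, 4 libraries a group) for Ccl17, 0.96 ± 0.38 for Ccl22, 0.79 ± 0.35 for Ccr7 and 1.30 ± 0.60 for Ccr4. Adjusted p-values from edgeR's quasi-likelihood test were 0.44, 0.44, 0.449 and 0.451 in that order. Without either library of day 5 the difference fell to 0.41 for Ccr7 and to 0.60 to 0.61 for Ccr4, and without either library of day 7 it was 0.55 to 0.56 for Ccl17 and 0.64 for Ccl22. The highest values with a library left out were 1.15 for Ccl17, 1.38 for Ccl22, 1.09 for Ccr7 and 1.74 for Ccr4, the last without the control library of day 3. Unadjusted p-values in the edgeR fit of all libraries were 0.0344, 0.0407, 0.0657 and 0.0712, and 1458 genes were under 0.05 without adjustment, while DESeq2 called 80 genes. A bulk level of this kind cannot tell more cells of a type from more RNA per cell. The share of dendritic-like cells was 4.20%, 8.70%, 12.6% and 16.7% of the cells in the diabetic libraries of days 1, 3, 5 and 7, and 2.47%, 8.70%, 5.94% and 6.92% in the controls. T cell-like cells were 2.35%, 3.22%, 11.5% and 18.3% in the diabetic and 2.31%, 5.18%, 5.21% and 10.7% in the control libraries.

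Within dendritic-like cells the direction of the differences in Ccl17 and Ccl22 between groups turned from day to day. Ccl17 was 144, 94.5, 94.8 and 58.1 CPM in the diabetic and 255, 40.8, 213 and 38.4 in the control libraries of days 1, 3, 5 and 7. It was lower in the diabetic library on days 1 and 5 and higher on days 3 and 7, each beyond counting error. Counting error leaves out the spread between cells. On day 5 a single cell held 91 of the 405 diabetic and another 127 of the 397 control UMIs. Ccl22 turned in the same way, with 771, 816, 1396 and 646 CPM in the diabetic and 1699, 561, 1587 and 413 in the control libraries. Ccr7 was 542, 717, 1086 and 639 CPM in the diabetic and 929, 785, 927 and 759 in the control libraries. It was lower in the diabetic library except on day 5. Averaged over days, the log2 fold change was −0.11 ± 0.35 for Ccl17 (95% interval −0.88 to 0.66), −0.05 ± 0.26 for Ccl22 (−0.62 to 0.53) and −0.25 ± 0.15 for Ccr7 (−0.59 to 0.10). In mature dendritic-like cells it was −0.12 ± 0.31 (−0.81 to 0.57), 0.05 ± 0.15 (−0.27 to 0.38) and −0.27 ± 0.14 (−0.57 to 0.04) in the same order. None of these 6 values passed edgeR's test, against a background of 0.0109% of 9186 genes called in dendritic-like and 0.0192% of 5218 in mature dendritic-like cells. Left-out libraries turned the sign of Ccl17 and Ccl22, with ranges of −0.54 to 0.29 and −0.28 to 0.32 in dendritic-like cells. With the mature cells left out, the remaining dendritic-like cells gave 0.32 ± 0.34 for Ccl17, 0.49 ± 0.22 for Ccl22 and 0.12 ± 0.13 for Ccr7, of the opposite sign and again past no threshold. In Apol7c/Il12b-led cells alone, Ccl17 was 769, 211, 374 and 231 CPM in the diabetic and 742, 112, 1016 and 178 in the control libraries of days 1, 3, 5 and 7, and the groups overlapped there too. Mature cells were 13.5%, 21.8%, 22.0% and 19.2% of dendritic-like cells in the diabetic libraries and 25.7%, 19.1%, 23.2% and 19.6% in the controls.

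In T cell-like cells Ccr4 was 38.3, 60.8, 67.8 and 72.9 CPM in the diabetic libraries of days 1, 3, 5 and 7 and 36.9, 33.3, 15.3 and 60.9 in the controls. It was higher in the diabetic library on 4 of 4 days, within counting error on days 1 and 7, with overlapping groups and a gap that was widest on day 5, where the control value rests on 16 UMIs in 170 cells. The log2 fold change was 0.79 ± 0.34 (0.01 to 1.57), with an unadjusted p of 0.0471 and an adjusted p of 0.999 by edgeR. It was 0.37 to 0.38 without either library of day 5 and 1.05 to 1.07 without either library of day 7. Of 8211 genes tested in this class, 0% were called, 256 had an unadjusted p under 0.05, and DESeq2 called 1. Ccr7 in the same cells gave 0.26 ± 0.22 (−0.25 to 0.77) and did not pass. Ccl22 gave 1.07 ± 0.66 (−0.44 to 2.58), a value that includes the libraries in which single cells held most UMIs. It was 0.10 without the diabetic and 0.13 without the control library of day 3, and 1.96 and 1.94 without those of day 7. The class held 142 cells led by the macrophage genes Ly86 and Mrc1 and 115 led by Atp6v0d2, a gene of osteoclasts. On day 5 the Ly86/Mrc1-led cells were 2.90% of the class in the diabetic and 20.6% in the control library. Without both sub-clusters the log2 fold change was 0.80 ± 0.30 for Ccr4 and 1.91 ± 0.48 for Ccl22, and neither passed after adjustment. Over 22 settings of the fit, left-out libraries included, the value of Ccl22 ran from 0.10 to 2.12 and passed in 0.

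The sub-clusters of T cell-like cells took unequal numbers of cells from the days in each group, so in their sums over the 4 libraries of a group, group and day cannot be told apart. Ccr4 in regulatory T-like cells was 102 CPM in diabetic (83.3 to 125) and 113 in control wounds (84.3 to 149). In the Tnfsf8/Cd4-led sub-cluster it was 124 (104 to 148) and 70.3 (52.2 to 92.7). Ccr7 in that sub-cluster was 152 (129 to 178) and 88.6 (68.1 to 113). Of its 100 UMIs of Ccl22 in diabetic wounds, 56 lay in 4 of the 18 cells of day 3, and the control cells held 6. In the Blk/Cd163l1-led gamma-delta T-like sub-cluster, which made up 43.2% of T cell-like cells in the diabetic library of day 5 and 2.35% in the control library of that day, Ccr4 was 64.1 (50.6 to 80.0) and 20.8 (8.35 to 42.8). The share of that sub-cluster was 29.5%, 24.6%, 43.2% and 1.65% of T cell-like cells in the diabetic and 34.3%, 21.3%, 2.35% and 1.00% in the control libraries of days 1, 3, 5 and 7. Of its 295 diabetic cells 208 came from day 5, and of its 97 control cells 35 came from day 1 and 53 from day 3. By library, Ccr4 in the sub-cluster was 76.0, 115 and 56.4 CPM in the diabetic libraries of days 1, 3 and 5 and 56.3 and 5.36 in the control libraries of days 1 and 3, while the diabetic library of day 7 and the control libraries of days 5 and 7, with 11, 4 and 5 cells, held 0 UMIs. In the Il17a/Il17f-led gamma-delta T-like sub-cluster Ccr4 was 40.1 in diabetic (24.5 to 62.0) and 48.0 in control wounds (34.8 to 64.7), with overlapping intervals.

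**Figure D4:**
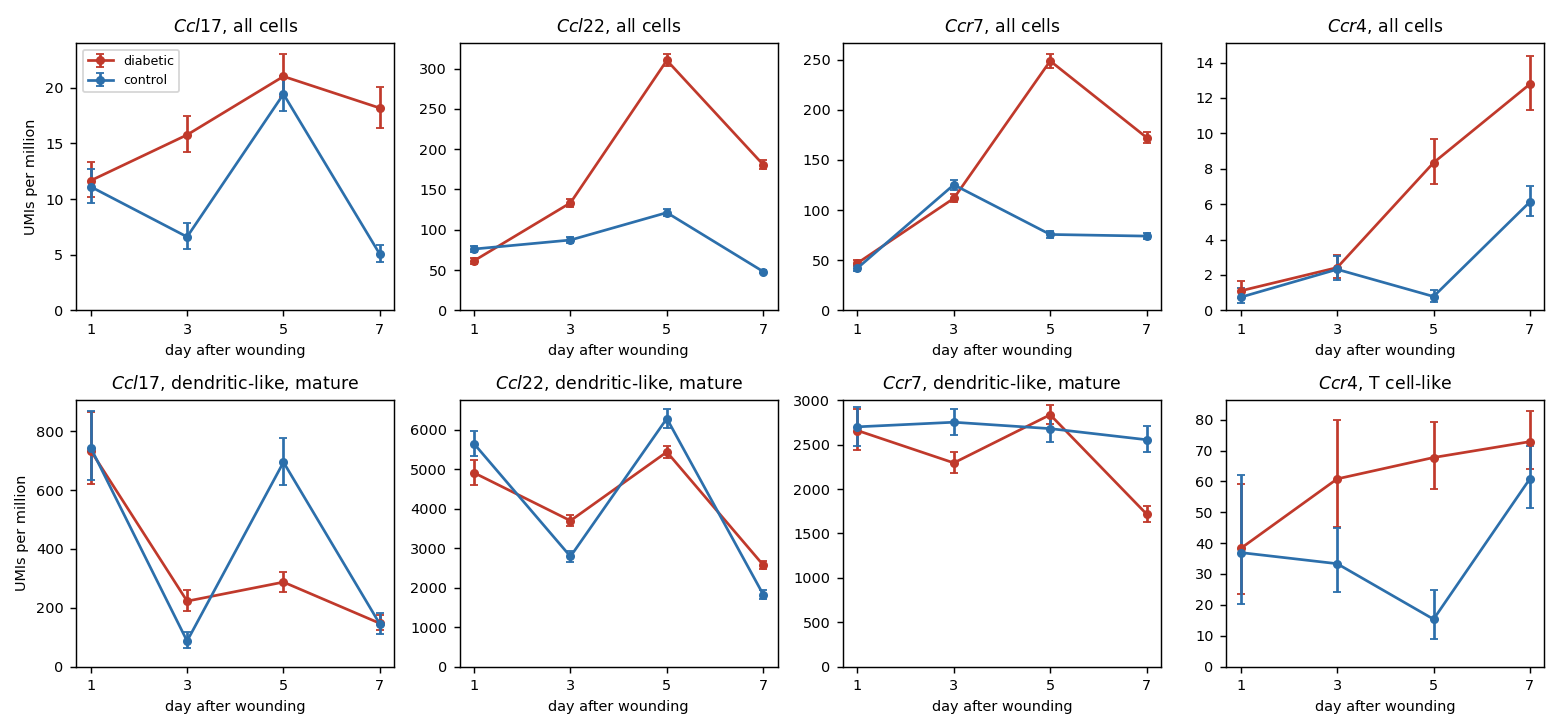
Levels over all cells (upper panels) and in mature dendritic-like or T cell-like cells (lower panels), in CPM (y axes from 0) by day after wounding (x axes). Each point is 1 library with a 95% Poisson interval, diabetic in red and control in blue. Over all cells the diabetic libraries lie above the controls on days 5 and 7 for each gene, while in mature dendritic-like cells the lines cross.

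The second comparison asked whether the levels changed from day 1 to day 7, with group as a block. Ccr4 over all cells rose by 0.44 ± 0.11 on the log2 scale per day (interval 0.19 to 0.70), with an adjusted p of 0.043 by edgeR. It was the only 1 of the 4 genes to pass, in a fit where 10.3% of 13332 genes were called and 3.46% were called as higher with day. The call was lost (adjusted p of 0.17, 0.0597, 0.159, 0.168 and 0.143) without the diabetic library of day 1, 3 or 7 or the control library of day 1 or 7, and the slope stayed between 0.39 and 0.48. The calls over all genes depended on the libraries of days 1 and 7. They numbered 1 without the control and 11 without the diabetic library of day 1. Leaving out a library of day 7 gave 3 for the diabetic and 235 for the control library. Without the diabetic library of day 3 they numbered 1345, beside 1378 with all libraries. Without the group block the adjusted p was 0.0645. Within T cell-like cells the slope of Ccr4 was 0.12 ± 0.07 per day (−0.04 to 0.28) and did not pass, in a fit with 0.164% of 8550 genes called.

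Ccl17 had negative slopes in dendritic-like cells that did not pass after adjustment. The slope was −0.23 ± 0.11 per day (−0.46 to −0.0020) in dendritic-like cells, with an adjusted p of 0.435 by edgeR, and −0.30 ± 0.11 (−0.54 to −0.06) in mature dendritic-like cells, with an adjusted p of 0.27. The background was 0.305% of 9505 genes called in the former and 0.784% of 5612 in the latter. Without the control library of day 3, the mature dendritic-like slope of Ccl17 passed at −0.34 (adjusted p of 0.042 in that edgeR fit). In mature dendritic-like cells Ccl22 gave −0.15 ± 0.07 per day (−0.31 to 0.01) and Ccr7 −0.06 ± 0.04 (−0.14 to 0.02), and neither passed. Over all cells the slopes were −0.05 ± 0.09 for Ccl17, 0.04 ± 0.11 for Ccl22 and 0.13 ± 0.10 for Ccr7.

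A test of whether the slopes differed between the groups, added after the levels had been seen, called 0 of 13 member tests. It called few genes at all, 0% of 13857 over all cells, 0% of 9920 in dendritic-like, 0.0165% of 6046 in mature dendritic-like and 0% of 8939 in T cell-like cells, with 240, 200, 253 and 340 genes at an unadjusted p under 0.05 in edgeR. The largest difference over all cells was that of Ccl22, 0.39 ± 0.18 log2 per day higher in diabetic wounds (−0.02 to 0.80), with an unadjusted p of 0.0618 and an adjusted p of 1.00 by edgeR. The DESeq2 form of this test was not run.

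**Figure D5:**
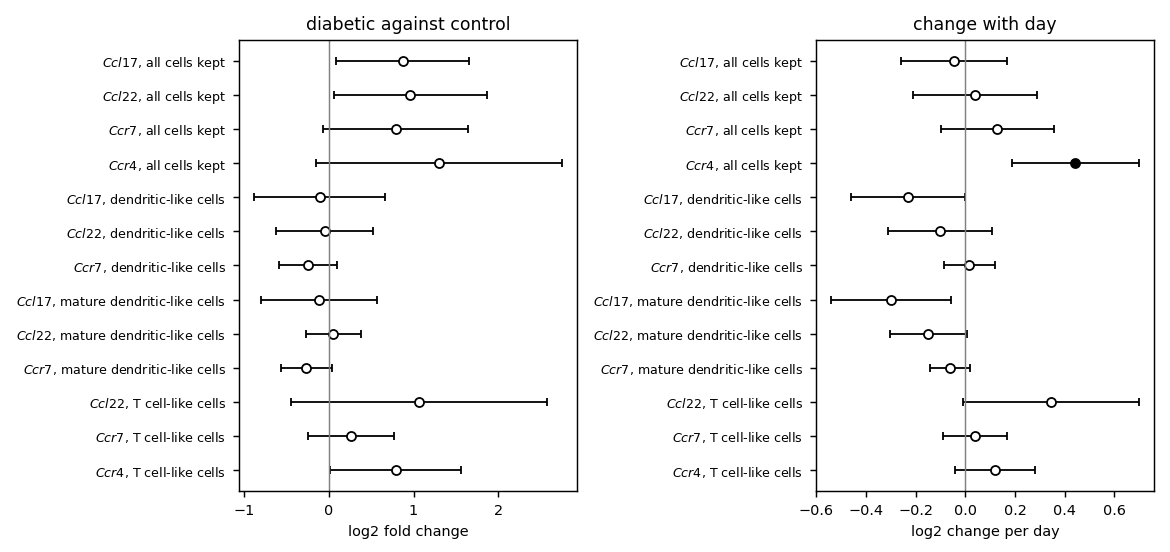
Log2 fold change of diabetic over control (left) and log2 change per day (right) for each gene and set of cells, with 95% intervals from edgeR. The filled point, Ccr4 over all cells at 0.44 per day, is the only value with an adjusted p under 0.05.

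Genes of the same pathways were read from 7 lists. Of the list of CCR7 ligands and scavengers, 3 of 7 were in the tables, and the ligands Ccl19 and Ccl21a were not analysed here. The scavenging receptors Ackr2 and Ackr4 were at or close to 0 in every immune class. Ccrl2, a chemerin-binding receptor without chemotactic signalling, was the single tested gene of the list, with a log2 fold change of −0.05 ± 0.14 in dendritic-like cells. Of 22 tested genes of dendritic maturation and migration, 0 passed between groups in dendritic-like or mature dendritic-like cells, and the median log2 fold change was 0.03 and 0.01, beside −0.00 and −0.01 over all genes. Fscn1 in mature dendritic-like cells was 7049, 5636, 4273 and 3680 CPM in the diabetic and 9621, 5287, 5704 and 4674 in the control libraries. It fell by 0.18 ± 0.04 on the log2 scale per day (adjusted p of 0.0402, edgeR), as the 1 of 22 genes of that list to change with day there, beside 0.784% of all genes, but not without the day 1 or day 7 library of either group.

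The list of Ccl17 and Ccl22 inducers holds receptors for interleukin-4, GM-CSF and TSLP, transcription factors, and the lectins Mgl2 and Cd209a. Both lectins were also among the markers of the dendritic class. Of the 12 genes of the list, 0 passed in either comparison within dendritic-like cells. Csf2rb, the shared beta chain of the GM-CSF receptor, was at 1900 CPM in that class, with a log2 fold change of 0.34 ± 0.13 between groups (unadjusted p of 0.0258 and adjusted p of 0.763 in the edgeR fit). The lowest adjusted p of the list between groups in that class was 0.567 by edgeR, for another gene. Among other chemokines of dendritic cells and macrophages, Ccl8 rose with day, by 0.79 ± 0.08 per day in dendritic-like cells (adjusted p of 0.00291, edgeR) and by 0.82 ± 0.12 in mature dendritic-like cells (adjusted p of 0.0168). The call was lost without the diabetic library of day 7 in both sets of cells, and without the control library of day 7 in the mature cells. Ccl8 was at 1044 CPM in macrophage-like cells and 104 in dendritic-like cells. Macrophage-like cells were 3.89%, 15.5%, 5.33% and 26.0% of cells in the diabetic libraries of days 1, 3, 5 and 7 and 5.71%, 11.9%, 44.3% and 49.4% in the controls, and the part of their RNA in the rise of Ccl8 was not tested.

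Over all cells, 3 of 22 genes of dendritic maturation fell with day (Birc3 by 0.21 ± 0.05, Cd274 by 0.33 ± 0.09 and Marcksl1 by 0.26 ± 0.06 per day on the log2 scale), as did 2 of 12 inducers (Csf2ra and Il13ra1, each by 0.21), beside 6.88% of all genes that were called as lower with day. Of 12 other chemokines, Ccl4, Ccl6 and Cxcl10 fell by 0.33, 0.32 and 0.29 per day, and Ccl8 rose by 0.61. The calls of Ccl8 and of the 8 genes that fell were lost without the day 1 or day 7 library of either group, that of Cd274 also without either library of day 5, and those of Ccl4 and Ccl6 also without the diabetic library of day 5. Without the control library of day 1, Cd274 fell by 0.16 and Ccl4 by 0.21.

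Over all cells, 6 of 8 genes of the regulatory T cell list rose with day, beside 3.46% of all genes, and 0 fell. Foxp3, which defines regulatory T cells, rose by 0.67 ± 0.11 per day (adjusted p of 0.0239, edgeR), and Tnfrsf4, a costimulatory receptor, by 0.57 ± 0.11. Of 12 T cell homing receptors, Ccr8, S1pr1 and Itgae rose, with Ccr8, which like Ccr4 is found on skin-homing T cells, at 0.54 ± 0.09 per day. Each of these 9 calls was lost without either day 1 library and without the diabetic library of day 7, while the slopes kept their sign. Of the 9, 6 (Tnfrsf4, Ccr8, Icos, Itgae, Tnfrsf18 and Tigit) were also lost without the control library of day 7, Tnfrsf18 also without the diabetic library of day 3 or 5, and Tigit also without the control library of day 3 or the diabetic library of day 5. Within T cell-like cells, 1 of 8 genes of the regulatory T cell list rose, Ikzf2, by 0.34 ± 0.05 per day (adjusted p of 0.0416, edgeR; lost without the same 3 libraries), and 0 of 11 tested homing receptors passed, beside 0.164% of all genes. Regulatory T-like cells were 4.46% and 3.92% of T cell-like cells on day 1 and 22.3% and 13.1% on day 7 in the diabetic and control libraries. In dendritic-like cells 1 of 6 tested genes of that list rose, Tnfrsf4, by 0.28 per day, beside 0.305% of all genes called. This call was lost without either library of day 7 or the control library of day 1. Of 5 tested type 2 lymphocyte genes, Il1rl1 rose over all cells, by 0.32 per day. Its call was lost without either library of day 1 or 7 or the control library of day 3.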

How the data were processed

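Single-cell RNA was measured in 8 libraries of CD45+ wound cells. The authors deposited 1 table of counts per library, with whole UMI counts that had not been normalized. Per the methods, reads were trimmed with fastp (0.20.1 in the submitters' processing notes), barcodes and UMIs were assigned with UMI-tools, and reads were mapped with STAR to the mouse genome. The methods give an Ensembl version of that genome and the processing notes name mm9. Coordinates here therefore come from GENCODE and RefSeq annotation of GRCm38 and not from the count tables. The platform was not settled, since BD Rhapsody stands in the methods and 10X Genomics in the series record. Strandedness of the counting is not given in the sources used here.

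Of 38959 barcodes, 35158 were kept as cells (more than 200 genes detected, mitochondrial share below 20%), and mitochondrial genes were left out. Cells were clustered with scanpy 1.11.5 and leidenalg 0.10.2, without the 4 members, and named from marker lists, with the thresholds set after the clusters were seen. Scrublet called 68 cells (0.193%), under the 0.5% at which a caller is taken to have worked, so doublets were not removed. Cells were thinned to 1000 UMIs for shares, and intervals are exact binomial or Poisson at 95%.

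UMIs were summed per library and class and tested with edgeR 4.0.16 (R 4.3.3; quasi-likelihood, TMM, filterByExpr, Benjamini-Hochberg over all genes, threshold 0.05), with day as a block for the group and group as a block for the day. The pairing comes from the design, with 1 library of each group a day. The low-count filter used the groups in the group fit and the design matrix in the day fit. DESeq2 1.42.0 was an alternative. Fits were tested on simulated data, and the results of that check are not given here. The p-values measure the spread between libraries of pooled mice, and days stand in for replicates.

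Named genes were the 4 members, for each member the 5 genes with the highest correlation of log2(CPM + 20) over class-by-library sums of at least 50 cells, and, of 7 lists, genes past the threshold or else the 3 highest, of which the text gives a selection. The members and lists were chosen with earlier results of these data known.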

Additional observations from a re-analysis of the deposited data

Results flagged for a closer look

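Among 27 groups of 4 libraries, 1 value stood apart from the rest of its group by Dixon's criterion. Ccr7 in T cell-like cells was 93.0 CPM in the control library of day 5, while the other control libraries lay between 50.1 and 51.6 CPM. Its 97 UMIs came from 27 of 170 cells, and a single cell held 21 of them. Ly86/Mrc1-led cells were 20.6% of T cell-like cells in that library, beside 7.84%, 2.41% and 4.42% in the control libraries of days 1, 3 and 7. Their Ccr7 level over the control libraries was 92.9 CPM, and their part in the flagged value was not tested. Chance flags about 1 in 20 such groups.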

How the results depend on the processing

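Apart from leaving out a library, members kept their direction and their side of the threshold in 274 alternative values, turned in 13, passed anew in 3 and lost the call in 1, and counts of genes called stayed within 1.5 times in 62 and moved further in 30. With DESeq2, genes called between groups numbered 80 over all cells, 14 in dendritic-like, 2 in mature dendritic-like and 1 in T cell-like cells, and with day 2761, 146, 88 and 80. Without the low-count filter the counts were 1, 128, 28 and 31 between groups and, with day, 344 in dendritic-like, 254 in mature and 124 in T cell-like cells. There the day slopes of Ccl17 passed at −0.23 in dendritic-like and −0.28 in mature cells, as did that of Ccl22 at −0.13 in mature cells. With library size alone, 2383, 29 and 6 genes were called with day over all, mature and T cell-like cells, and the slope of Ccl17 over all cells turned to 0.041.

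Without the replicate block, 0 genes were called between groups in dendritic-like and in mature cells, and 11 and 1 with day in dendritic-like and T cell-like cells. Ccr4 over all cells then lost its call with day (0.47 per day), and the group difference of Ccl22 in mature cells turned to −0.071. The pairing changed no other member's call.

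With the shallow unnamed cluster counted as dendritic-like, 2 genes were called between groups and 7 with day, and the group difference turned to 0.31 for Ccl17, 0.39 for Ccl22 and 0.15 for Ccr7, and the day slope of Ccr7 to −0.017. The next alternatives were chosen after seeing the data. In dendritic-like cells without the mature ones, 3 genes were called between groups, the differences were 0.32, 0.49 and 0.12, and the day slope of Ccl22 was 0.22. Without the highest 5% of doublet scores the differences of Ccl17 and Ccl22 were 0.052 and 0.036, and 6 genes were called with day in T cell-like cells. Without the T sub-clusters led by macrophage or osteoclast genes the day slope of Ccr7 was −0.0036. At a resolution of 0.4, 0 genes were called between groups in mature and 4 with day in T cell-like cells, where keeping the members among the clustered genes gave 6 and not regressing total UMIs 5. The cause of these changes was not tested.

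Leaving out 1 library gave 0 to 1, 1 to 3, 0 to 2 and 0 to 0 genes between groups (all, dendritic-like, mature and T cell-like cells) and 1 to 1621, 0 to 113, 1 to 84 and 0 to 34 with day. Day slopes over all cells ran from −0.11 to 0.055 for Ccl17, −0.10 to 0.17 for Ccl22, 0.0096 to 0.23 for Ccr7 and 0.39 to 0.48 for Ccr4. In dendritic-like cells the group difference ran from −0.54 to 0.29 for Ccl17 and −0.28 to 0.32 for Ccl22, and the slope from −0.19 to 0.00011 for Ccl22 and −0.043 to 0.049 for Ccr7. In mature cells the group difference ran from −0.52 to 0.34 for Ccl17 and −0.082 to 0.16 for Ccl22, and the slope of Ccl17 from −0.37 to −0.21. The mature slope of Ccl22 ran from −0.20 to −0.068 and that of Ccr7 from −0.078 to −0.021. The slope of Ccl22 in T cell-like cells ran from 0.17 to 0.61 and passed without the diabetic library of day 3. That of Ccr4 in the same cells ran from 0.029 to 0.16. The group difference of Ccr7 ran from −0.41 to −0.063 in dendritic-like, −0.36 to −0.15 in mature and 0.099 to 0.46 in T cell-like cells.

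Without thinning, the shares of cells with a UMI in mature, other dendritic-like, T cell-like and neutrophil-like cells were 26.1%, 5.06%, 1.67% and 0.581% for Ccl17, 82.0%, 23.5%, 11.3% and 5.20% for Ccl22, and 95.2%, 42.5%, 15.7% and 3.11% for Ccr7. For Ccr4 they were 0.528% in other dendritic-like, 13.7% in T cell-like and 0.189% in neutrophil-like cells. Ccr4 had the fewest UMIs of the genes, and 0 of 549 thinned mature cells had a UMI of it.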
